A study of Mus musculus with 6 samples.

Results

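The genes described here are 10 members of the NRF2 pathway, chosen by name with earlier results of these data known. They are Nfe2l2, Keap1, Hmox1, Nqo1, Gclc, Gclm, Slc7a11, Gsr, Txnrd1 and Srxn1. All 10 were among the 21878 genes of the deposited count table and all 10 passed the filter on low counts. RNA came from mouse soft tissue at the Achilles tendon, in 3 libraries labelled sham (sham 1 to 3) and 3 labelled Achilles tendon amputation (amputation 1 to 3). The labels give no strain, age, sex or time after surgery, and no transgene or drug. The title places the samples in work on KLF2, PPARγ, mitochondria and bone formed outside the skeleton after trauma. Nothing in the labels tells whether replicates are separate animals, so p-values measure the spread between these libraries only, which may be technical.

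NRF2, the product of Nfe2l2, is a transcription factor that switches on antioxidant and detoxifying genes. In unstressed cells KEAP1 holds NRF2 for ubiquitination by the CUL3 ligase and rapid degradation. Oxidants and electrophiles modify cysteines of KEAP1, after which NRF2 builds up, pairs with small MAF proteins and binds antioxidant response elements (AREs) near its targets. BACH1 occupies many of the same elements and represses them, above all at Hmox1, until heme displaces it. Because the pathway is set mainly at the level of NRF2 protein, the abundance of the Nfe2l2 transcript is not a measure of NRF2 activity.

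Libraries held 23916839 to 31346730 counts, and 1 count stood for 0.0322 to 0.0409 CPM (counts per 1000000 counts, after TMM scaling between libraries). All 14 tenocyte and fibroblast markers, among them the tendon genes Tnmd and Scx, passed the filter, and 7 were called higher. All 9 chondrocyte markers tested were called higher. Skeletal muscle markers took 19.6% to 21.9% of the counts in sham, but 1.65%, 0.519% and 16.4% in amputation 1 to 3, so that amputation 3 stood apart from the other amputation libraries. Macrophage markers were called higher in 15 of 16 cases and adipocyte markers lower in 10 of 10. Of all tested genes, 20.4% were called higher and 12.3% lower. In such bulk tissue, fewer cells of a type and less RNA per cell cannot be told apart.

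Promoter windows of RefSeq, from 250 bases before to 50 bases after an annotated start (GRCm38.p6), were matched for 7 of the 10 members by gene symbol, in 9 windows since Txnrd1 has 3. Hmox1, Gclc and Gsr had no window and were not searched, so nothing is said here of their elements. The 9 windows were searched on both strands for the ARE core, spelled TGACNNNGC, and, after that search, for the related spelling TGAGNNNGC. The first was present for Nfe2l2, Srxn1, Gclm and Txnrd1, and in 12.4% of all 32851 windows. The second was present for Srxn1 and Slc7a11, and in 17.6% of all windows. A match in either spelling was found for 5 of the 7 members, and in 27.8% of all windows. Members are counted by gene, with 3 windows for Txnrd1, and the background by window, so the shares differ in unit. The windows below are written 5′ to 3′ on the strand of the gene with matches in capitals, up to at most the annotated start. They are shown because they hold a spelling of the element through which NRF2 acts.

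Nfe2l2, chr2:75704870-75704913, minus strand: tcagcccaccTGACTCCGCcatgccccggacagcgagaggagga

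Gclm, chr3:122245398-122245456, plus strand: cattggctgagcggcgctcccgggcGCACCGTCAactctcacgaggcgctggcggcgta

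Txnrd1, chr10:82859089-82859147, plus strand: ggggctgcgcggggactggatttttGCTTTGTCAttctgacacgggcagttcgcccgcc

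Srxn1, chr2:152105341-152105523, plus strand: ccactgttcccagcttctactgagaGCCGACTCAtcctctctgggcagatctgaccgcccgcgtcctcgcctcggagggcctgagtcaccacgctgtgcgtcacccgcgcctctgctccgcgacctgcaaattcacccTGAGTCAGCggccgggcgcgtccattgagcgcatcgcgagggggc

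In Srxn1 the match at bases -45 to -37, counted from 0 at the annotated start, reads TGAGTCAGC and overlaps an AP-1 site, spelled TGACTCA or TGAGTCA; the other matches do not overlap one. A further Srxn1 match, at 28 to 36, lies past the start and outside the stretch printed. The Txnrd1 match lies at bases -92 to -84 of a single one of its 3 windows. Nqo1 had no match to either spelling in its window, which says only that these letters are absent from these 300 bases. Its part before the annotated start is printed for comparison, because Nqo1 is the usual reporter of the pathway.

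Nqo1, chr8:107403206-107403455, minus strand: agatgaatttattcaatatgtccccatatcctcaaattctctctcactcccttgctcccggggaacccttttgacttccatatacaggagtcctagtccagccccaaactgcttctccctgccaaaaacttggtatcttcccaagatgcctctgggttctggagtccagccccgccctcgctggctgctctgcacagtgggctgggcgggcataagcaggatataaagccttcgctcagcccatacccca

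The Slc7a11 match to TGAGNNNGC reads TGAGAAAGC, at bases -97 to -89 on the opposite strand. The Slc7a11 stretch printed below starts inside that match and leaves it unmarked. Its window also held matches to another element, the amino acid response element through which ATF4 acts, spelled TGATGCAAA here. This spelling occurred 2 times, at bases -66 to -58 on the strand of the gene and at -48 to -40 on the opposite strand, where it reads in reverse complement. Of all 32851 windows, 0.271% held this spelling, and no window of another member searched did. This spelling fixes every base, while the ARE spellings leave bases free, so the shares of windows cannot be compared. Related spellings of this element were not searched.

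Slc7a11, chr3:50443628-50443704, minus strand: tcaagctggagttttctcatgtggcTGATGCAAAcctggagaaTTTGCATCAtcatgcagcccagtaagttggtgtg

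A match is a description of the letters and not evidence of binding in this tissue.

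Across the pathway, Hmox1 and Slc7a11 rose after amputation, Nqo1 and Gclc fell, and the other 6 members were not called. A gene is called here at an adjusted p under 0.05 in the quasi-likelihood test of edgeR, adjusted by Benjamini-Hochberg for all 14561 genes tested. Called higher were 2 of 10 members, beside 20.4% of all tested genes, and called lower were 2 of 10, beside 12.3%, so neither count stood far from the background. Since the members were chosen with earlier results of these data known, their shares are a description and not an independent test. The groups did not overlap in CPM for 5 of the 10 members, beside 54.8% of all tested genes. The median log2 fold change of the members was -0.12, and that of all tested genes -0.02. With any of sham 1, sham 2, sham 3 or amputation 1 left out, 1 member was higher (Hmox1) and 1 was lower (Nqo1). The background moved as well: with sham 1, 2, 3 and amputation 1, 2, 3 left out in turn, 10.6%, 7.39%, 9.19%, 10.8%, 12.6% and 28.5% of all tested genes were called higher and 4.55%, 2.95%, 5.4%, 4.68%, 6.05% and 29.7% lower.

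**Figure D1:**
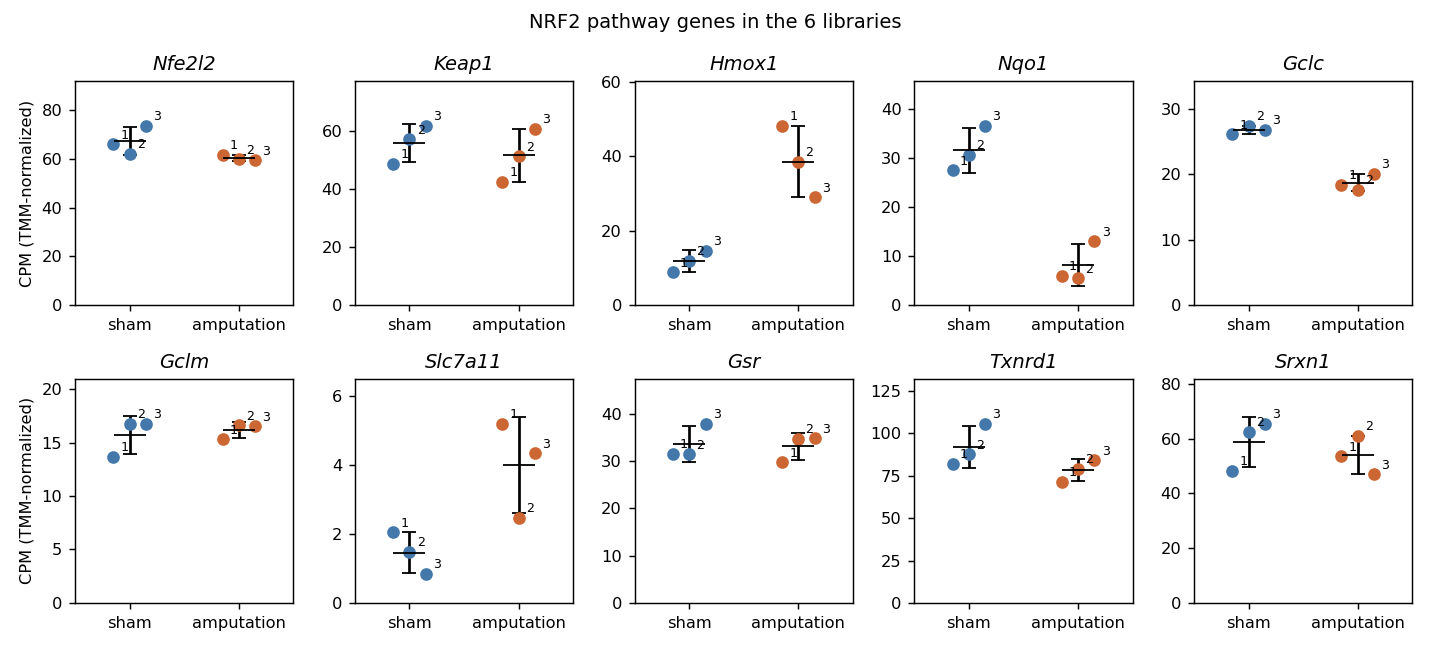
Abundance of each member in the 6 libraries, as TMM-normalized CPM on linear axes that start at 0. Points are libraries numbered as in the labels, the horizontal mark is the mean of 3 and the bar is 1 SD. Hmox1, Slc7a11, Nqo1 and Gclc separate the groups, while Keap1, Gclm, Gsr, Txnrd1 and Srxn1 overlap and Nfe2l2 separates by a small margin.

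Nfe2l2, the transcription factor itself, stood at 66.2, 62.2 and 73.6 CPM in sham 1 to 3 and at 61.9, 59.9 and 59.5 CPM in amputation 1 to 3. All amputation values in CPM lay just below the lowest sham value, and the 3 were close to each other. In FPKM, which is not TMM-scaled, the groups overlapped, at 27.1, 25.2 and 28.4 in sham and 27.1, 23.1 and 22.7 in amputation. The log2 fold change was -0.16 ± 0.11 (SE, n = 3 per group; adjusted p = 0.306, edgeR). Keap1, the sensor and inhibitor of NRF2, stood at 48.6, 57.0 and 61.7 CPM in sham and 42.5, 51.3 and 60.7 CPM in amputation. The groups overlapped throughout, at a log2 fold change of -0.11 ± 0.17 (adjusted p = 0.613, edgeR). The ratio of Nfe2l2 to Keap1 in FPKM, which corrects for gene length, was 2.73, 2.19 and 2.40 in sham and 2.92, 2.34 and 1.97 in amputation.

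All 3 small MAF genes, whose products pair with NRF2 on DNA, fell. Mafk fell by 1.15 ± 0.13 on the log2 scale, from 56.4 ± 6.51 in sham to 25.5 ± 1.42 CPM in amputation (SD; adjusted p = 0.00403, edgeR, n = 3 per group), and its groups lay far apart. Maff fell by 0.96 ± 0.25 (adjusted p = 0.03) and Mafg by 0.43 ± 0.12 (adjusted p = 0.0343, both edgeR). Both rested nearer the threshold: Maff was lost without sham 1, 2 or 3 or amputation 1 (log2 -1.08, -0.79, -1.06 and -0.95), and Mafg without any library except amputation 3 (log2 -0.48 to -0.42), with upper quartile scaling (-0.37) and on FPKM. Bach1, the repressor, stood at 61.8, 62.4 and 68.1 CPM in sham and 81.7, 75.6 and 62.9 CPM in amputation, with overlapping groups (log2 0.20 ± 0.14; adjusted p = 0.289, edgeR), and was called only without amputation 3 (0.30).

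Nfe2l1, the related factor NRF1 that maintains proteasome genes, stood at 867, 912 and 1013 CPM in sham and 286, 293 and 699 CPM in amputation. Amputation 3 lay between the other amputation libraries and sham, as the muscle markers did, and Nfe2l1 was not called (log2 -1.13 ± 0.40; adjusted p = 0.0735, edgeR). It was called without amputation 3 (log2 -1.69), with the replicate block (-1.26, adjusted p = 0.0417), in DESeq2 (-1.15) and in limma (-1.26 on counts, -1.24 on log2(FPKM + 1) and -1.26 on log2(FPKM + 0.1)), and stood at -0.41 with the muscle covariate. Sqstm1, the autophagy receptor p62 that draws KEAP1 into degradation, stood at 366, 395 and 443 CPM in sham and 203, 207 and 385 CPM in amputation. Sqstm1 was not called in all libraries (log2 -0.60 ± 0.30, adjusted p = 0.155, edgeR) and, of the alternative settings, was called only without amputation 3 (-0.97). Nfe2l3, another relative, was nearly silent: 0, 0 and 4 counts in sham and 29, 37 and 16 in amputation. It was called higher (adjusted p = 0.0213, edgeR), but not without sham 1, sham 2, amputation 1 or amputation 2 or with the muscle covariate (adjusted p = 0.0786), and its fitted fold change depends on the prior count. Of 16 regulators and partners, all tested, 2 were called higher (Nfe2l3 and Dpp3) and 4 lower (Mafk, Maff, Mafg and Btrc), 12.5% and 25%, beside 20.4% and 12.3% of all tested genes, at a median log2 fold change of -0.19; with sham 1, 2, 3 and amputation 1, 2, 3 left out in turn, 0, 0, 1, 1, 0 and 3 were higher and 1, 1, 1, 1, 2 and 8 lower.

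Hmox1 encodes heme oxygenase 1, the inducible enzyme that splits heme into biliverdin, carbon monoxide and iron. It stood at 8.87, 12.0 and 14.6 CPM in sham 1 to 3 and at 48.1, 38.5 and 29.0 CPM in amputation 1 to 3. Every amputation library lay above every sham library, with the lowest of them in amputation 3. Hmox1 rose by log2 1.70 ± 0.26, a 3.26-fold change (95% interval 2.13 to 4.99; adjusted p = 0.00692, edgeR's quasi-likelihood test, n = 3 per group). The gene (NCBI gene 15368) lies on mouse chromosome 8 between 75093618 and 75100593 in GRCm38.p6. It was called under each of the 17 alternative settings run, with log2 values from 1.37 to 1.87.

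Hmox2, the constitutive heme oxygenase, gave a contrast within the same libraries. It stood at 31.0, 34.5 and 38.3 CPM in sham and 31.4, 34.9 and 43.8 CPM in amputation, with overlapping groups and a log2 fold change of 0.09 ± 0.16 (adjusted p = 0.692, edgeR). The ratio of Hmox1 to Hmox2 in FPKM was 0.378, 0.459 and 0.505 in sham and 2.03, 1.46 and 0.874 in amputation. Hmox1 thus passed Hmox2 in amputation 1 and 2 and stayed below it in amputation 3 and in all sham libraries.

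Several marker lists were higher where Hmox1 was higher. The summed level of the 16 macrophage markers ran from 435 to 589 CPM in sham and from 1383 to 1546 CPM in amputation. Against the sham mean these sums stood at log2 1.57, 1.41 and 1.57 in amputation 1 to 3, while Hmox1, as log2 CPM minus its sham mean, stood at 2.05, 1.73 and 1.32. Among the amputation libraries, the macrophage sum was lowest in amputation 2 and Hmox1 in amputation 3. The tenocyte and fibroblast sum stood at log2 3.02, 3.45 and 2.17 against its sham mean, and the chondrocyte sum at 6.14, 6.39 and 4.17, both lowest in amputation 3. A sum is weighted to its most abundant genes. The median over the 14 tenocyte and fibroblast markers, as log2 CPM minus the sham mean, was 1.49, 2.35 and 0.80. Of these 14, 7 were called higher, 50% beside 20.4% of all tested genes, and 2 had a negative log2 fold change. The summed erythroid markers, from red blood cells and their precursors, overlapped between groups. They ran from 192 to 594 CPM in sham and from 105 to 275 CPM in amputation. Of 12 markers, 11 were in the table, none at 0 throughout. Of 7 tested, 1 was called lower, 14.3% beside 12.3% of all tested genes. The part of macrophages, tenocytes and fibroblasts, chondrocytes or erythroid cells in the Hmox1 result was not tested. With the muscle markers as a covariate, Hmox1 stood at log2 1.37 (adjusted p = 0.0164, edgeR). The muscle sum stood at log2 -3.77, -5.26 and -0.25 in amputation 1 to 3 against its sham mean. In amputation 1 and 2 it thus cannot be told apart from group, and values with this covariate rest largely on amputation 3.

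The iron released by heme oxygenase leaves the cell through ferroportin, encoded by Slc40a1. Slc40a1 stood at 10.5, 8.40 and 14.1 CPM in sham and 236, 208 and 93.7 CPM in amputation and rose by log2 4.02 ± 0.42 (adjusted p = 0.00379, edgeR, n = 3 per group), or by 3.15 with the muscle covariate. Alad, of heme synthesis, fell by 1.30 ± 0.25 on the log2 scale, from 24.8 ± 1.28 in sham to 10.1 ± 3.59 CPM in amputation (SD; adjusted p = 0.0129, edgeR), and was not called without sham 2 (-1.27). Of 19 heme metabolism and uptake genes tested, 3 were called higher (Slc40a1, Slc11a1 and Blvra) and 3 lower (Alad, Alas1 and Abcg2), 15.8% each, beside 20.4% and 12.3% of all tested genes, at a median log2 fold change of -0.21; with sham 1, 2, 3 and amputation 1, 2, 3 left out in turn, 1, 1, 1, 2, 3 and 4 were higher and 3, 0, 1, 1, 1 and 7 lower. With the replicate block Slc11a1 lost its call (log2 0.996, adjusted p = 0.0513, edgeR). Blvrb, called higher, was counted with the other NRF2 target genes and not in this list, and Abcg2 was counted in both.

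Nqo1, which encodes the quinone reductase that is the classic reporter of NRF2 activity, moved the other way. It stood at 27.5, 30.7 and 36.5 CPM in sham 1 to 3 and at 6.03, 5.53 and 13.1 CPM in amputation 1 to 3. All amputation values lay below all sham values, and amputation 3 was the highest of them. Nqo1 fell by 1.94 ± 0.35 on the log2 scale, to a level 3.85-fold lower (95% interval of the log2 value -2.79 to -1.09; adjusted p = 0.0112, edgeR's quasi-likelihood test, n = 3 per group). The gene (NCBI gene 18104) lies on chromosome 8 between 107388225 and 107403205 in GRCm38.p6. It too was called under each of the 17 alternative settings, with log2 values from -2.45 without amputation 3 to -1.24 with the muscle covariate, a move of more than 1.5 times on the fold scale.

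Markers of other cells were lower beside Nqo1. The 10 adipocyte markers, all called lower, summed to 2316 to 3384 CPM in sham and to 721, 369 and 797 CPM in amputation 1 to 3. The 30 skeletal muscle markers summed to 194041 to 226928 CPM in sham and to 15122, 5375 and 172477 CPM in amputation 1 to 3, and 0 of 30 were called. The 10 endothelial markers, 5 of them called lower and 1 higher, summed to 1107 to 1284 CPM in sham and 601 to 881 CPM in amputation. Beside these counts, 12.3% of all tested genes were called lower and 20.4% higher. No marker of these lists was at 0 throughout. With the muscle covariate Nqo1 stood at log2 -1.24 (adjusted p = 0.00743, edgeR). The part of adipocytes and endothelial cells was not tested.

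**Figure D2:**
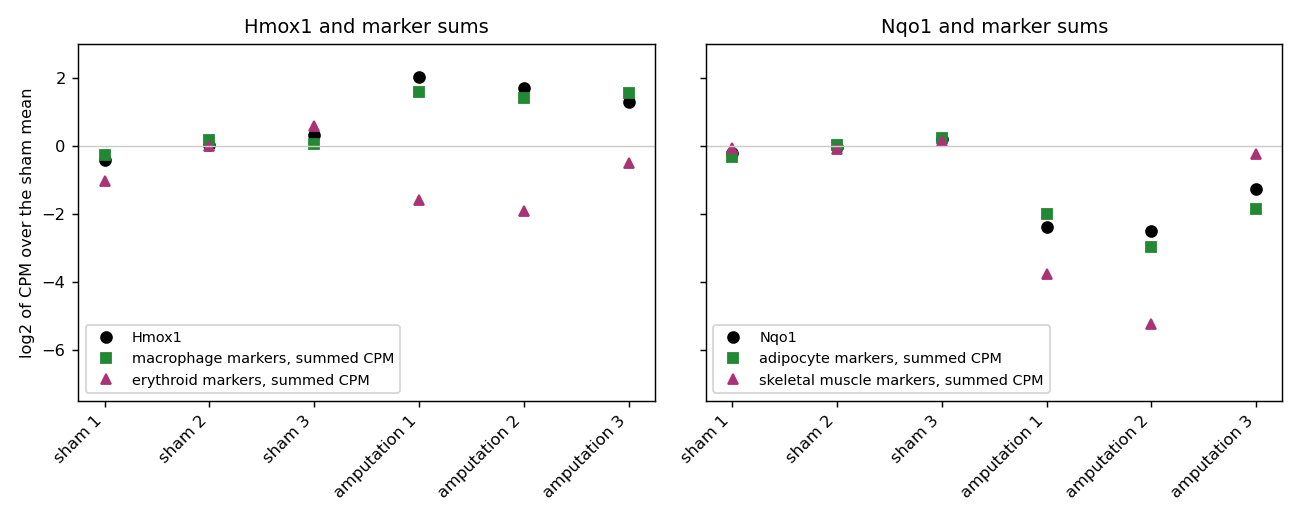
Hmox1 (left) and Nqo1 (right) in each library with the summed CPM of marker lists, all as log2 of the value over the mean of the 3 sham libraries. Hmox1 and the macrophage sum lie above their sham values in every amputation library, while the erythroid sum overlaps between groups. Nqo1 and the adipocyte sum lie below theirs, and the muscle sum lies far below in amputation 1 and 2 only.

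The ratio of Hmox1 to Nqo1 within a library sets both changes side by side, free of the scaling between libraries. In FPKM it was 0.318, 0.384 and 0.394 in sham 1 to 3 and 7.86, 6.85 and 2.18 in amputation 1 to 3. Nqo1 was thus the more abundant transcript in every sham library and Hmox1 in every amputation library.

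Glutamate-cysteine ligase, the rate-limiting enzyme, pairs the catalytic subunit encoded by Gclc with the modifier subunit encoded by Gclm. Gclc stood at 26.1, 27.4 and 26.8 CPM in sham and at 18.4, 17.7 and 20.1 CPM in amputation, without overlap and with a narrow spread in each group. It fell by 0.52 ± 0.11 on the log2 scale (adjusted p = 0.0155, edgeR, n = 3 per group). Gclm stood at 13.7, 16.8 and 16.8 CPM in sham and at 15.3, 16.6 and 16.5 CPM in amputation, with overlapping groups and a log2 fold change of 0.04 ± 0.13 (adjusted p = 0.834, edgeR). The ratio of Gclm to Gclc in FPKM was 0.887, 1.04 and 1.06 in sham and 1.41, 1.60 and 1.39 in amputation, without overlap and with no test run.

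Gss, which joins glycine to complete glutathione, stood at 4.98, 7.04 and 6.49 CPM in sham and 7.86, 10.6 and 8.62 CPM in amputation. The groups did not overlap, but Gss was not called (log2 0.55 ± 0.20; adjusted p = 0.0772, edgeR), except with the replicate number as a block (log2 0.55, adjusted p = 0.0414). The Gclc call was lost without sham 1, sham 2, sham 3 or amputation 1 (log2 -0.54, -0.52, -0.55 and -0.50) and with the muscle covariate (-0.40, adjusted p = 0.105, edgeR).

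Slc7a11 encodes xCT, the cystine transporter that supplies cysteine for glutathione, and it was the lowest member in FPKM. It was counted 50, 39 and 22 times in sham and 161, 73 and 129 times in amputation, which is 2.04, 1.48 and 0.84 CPM against 5.19, 2.46 and 4.33 CPM. The groups did not overlap, although amputation 2 was close to sham 1. Slc7a11 rose by log2 1.46 ± 0.42, a 2.75-fold change (95% interval 1.38 to 5.49; adjusted p = 0.039, edgeR, n = 3 per group). The call was lost without sham 1, sham 2, sham 3 or amputation 1 (log2 1.78, 1.45, 1.15 and 1.23), with the muscle covariate (1.74) and with limma on log2(FPKM + 1) (0.30) or log2(FPKM + 0.1) (1.03), so it rested near the threshold. A pseudocount of 1 exceeds the level of this gene, 0.0847 to 0.592 FPKM over the 6 libraries, and shrinks its fold change.

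Slc3a2, the heavy chain that carries xCT and other amino acid transporters to the membrane, exceeded Slc7a11 by 26.2 to 119 times in FPKM over the 6 libraries. It stood at 60.4, 69.2 and 63.0 CPM in sham and 108, 134 and 71.4 CPM in amputation. Its groups did not overlap and it was not called (log2 0.70 ± 0.23; adjusted p = 0.0609, edgeR), though it was without amputation 3 (0.91, adjusted p = 0.000766) and in DESeq2 (0.70, adjusted p = 0.0361). With the muscle covariate it stood at log2 0.10 (adjusted p = 0.665, edgeR).

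Of 19 other glutathione cycle genes tested, 4 were called higher (Anpep, Gpx1, Gpx3 and Slc1a4) and 2 lower (Slc1a5 and Oplah), 21.1% and 10.5%, beside 20.4% and 12.3% of all tested genes, at a median log2 fold change of -0.08; with sham 1, 2, 3 and amputation 1, 2, 3 left out in turn, 1, 0, 0, 0, 3 and 6 were higher and 2, 1, 1, 1, 2 and 8 lower. With the replicate block 4 were lower, beside 17.3% of all tested genes. Slc1a5, a glutamine carrier, fell by 1.24 ± 0.22 on the log2 scale, from 269 ± 18.4 in sham to 114 ± 29.8 CPM in amputation (SD; adjusted p = 0.0108, edgeR, n = 3 per group). Anpep, a cell surface peptidase that takes part in breaking down glutathione, rose by log2 1.20 ± 0.24, from 69.9 ± 13.8 in sham to 160.5 ± 37.6 CPM in amputation (adjusted p = 0.0144, edgeR). Anpep was not called without sham 2, sham 3 or amputation 1 (log2 1.24, 1.01 and 1.12) or with the muscle covariate (0.72).

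ATF4 drives amino acid transporters and synthesis genes under stress, Slc7a11 among them. Of 15 other genes of the ATF4 amino acid response, 3 were called higher and 3 lower, 20% each, beside 20.4% and 12.3% of all tested genes, at a median log2 fold change of -0.22; with sham 1, 2, 3 and amputation 1, 2, 3 left out in turn, 0, 0, 0, 0, 2 and 6 were higher and 2, 1, 1, 1, 1 and 5 lower. The 3 higher were Slc7a5, Mthfd2 and Sesn2, and the 3 lower were Atf3, Cebpb and Ddit3. Slc7a5, an amino acid transporter, rose by log2 1.35 ± 0.29, from 13.8 ± 1.55 in sham to 35.2 ± 13.4 CPM in amputation (SD; adjusted p = 0.0177, edgeR), and was not called without sham 1, 2 or 3 or amputation 1 (1.43, 1.33, 1.24 and 1.35). With the muscle covariate it stood at log2 0.57 (adjusted p = 0.0496, edgeR). Atf3, a stress-induced transcription factor, fell by 1.15 ± 0.20 on the log2 scale, from 35.9 ± 8.35 in sham to 16.2 ± 1.95 CPM in amputation (SD; adjusted p = 0.0106, edgeR).

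Gsr, glutathione reductase, stood at 31.5, 31.4 and 37.9 CPM in sham and 29.7, 34.8 and 34.9 CPM in amputation (log2 -0.02 ± 0.13, adjusted p = 0.904, edgeR). Txnrd1, the cytosolic thioredoxin reductase, stood at 82.1, 87.6 and 105.8 CPM in sham and 71.4, 79.1 and 84.3 CPM in amputation (log2 -0.23 ± 0.14, adjusted p = 0.243, edgeR). Srxn1, the sulfiredoxin that restores overoxidized peroxiredoxins, stood at 48.3, 62.5 and 65.6 CPM in sham and 53.7, 61.1 and 47.1 CPM in amputation (log2 -0.12 ± 0.17, adjusted p = 0.58, edgeR). All 3 genes overlapped between groups. Over the 6 members not called, the 95% intervals of the log2 fold change lay between -0.58 (Txnrd1) and 0.35 (Gclm), short of a 2-fold change either way. None of the 6 was called under any of the 17 alternative settings.

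Txnrd3, a testis-enriched form, fell by 0.81 ± 0.15 on the log2 scale, from 13.8 ± 1.61 in sham to 7.87 ± 0.663 CPM in amputation (SD; adjusted p = 0.0117, edgeR), and was not called without sham 2 (log2 -0.73) or with the muscle covariate (-0.69). Txnrd2, the mitochondrial form, stood at log2 -0.55 ± 0.24 and was not called (adjusted p = 0.119, edgeR), but was with the replicate block (-0.56, adjusted p = 0.0343) and without amputation 3 (-0.79). In FPKM, Txnrd1 exceeded Txnrd2 by 3.12 to 3.42 times in sham and 3.33 to 5.07 times in amputation, and Txnrd3 by 3.96 to 5.68 and 6.23 to 7.84 times.

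Of 18 other thioredoxin and peroxiredoxin genes tested, 4 were called higher (Prdx4, Sesn3, Sesn2 and Txndc12) and 3 lower (Txnrd3, Prdx6 and Msrb2), 22.2% and 16.7%, beside 20.4% and 12.3% of all tested genes, at a median log2 fold change of -0.50; with sham 1, 2, 3 and amputation 1, 2, 3 left out in turn, 3, 2, 2, 3, 3 and 5 were higher and 1, 0, 1, 1, 1 and 10 lower. With the replicate block 8 were lower, beside 17.3% of all tested genes. Prdx1 and Txn1, both called higher, were counted with the other NRF2 target genes and not in this list. Sesn2 was counted both here and in the ATF4 list. Prdx4, the peroxiredoxin of the endoplasmic reticulum, rose by log2 1.33 ± 0.22, from 11.3 ± 1.67 in sham to 28.4 ± 6.81 CPM in amputation (SD; adjusted p = 0.00819, edgeR, n = 3 per group). Sesn3, a sestrin, rose by log2 0.73 ± 0.11, from 31.4 ± 2.43 in sham to 52.1 ± 2.75 CPM in amputation (adjusted p = 0.00724, edgeR).

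**Figure D3:**
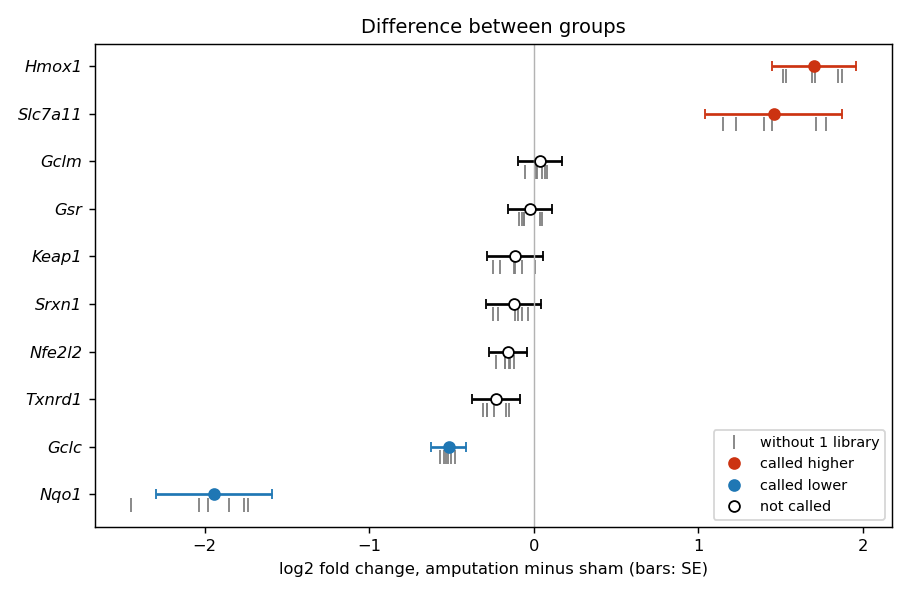
Log2 fold change of each member, amputation minus sham, with its SE, from the fit on all 6 libraries. Grey ticks under each point give the same value with 1 library left out. Nqo1 and Gclc lie below 0 and Hmox1 and Slc7a11 above it under every omission, while the other 6 lie between -0.31 and 0.08.

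Levels between genes are compared in FPKM. In sham, Nfe2l2 was the highest at 26.9 ± 1.66 FPKM (SD, n = 3), followed by Txnrd1 (22.8 ± 2.34), Srxn1 (20.8 ± 2.83) and Nqo1 (20.3 ± 2.32), each of which overlapped its neighbour in rank. Gsr (12.6 ± 1.01) and Keap1 (11.1 ± 1.03) came next and overlapped each other. Gclc (7.62 ± 0.25), Gclm (7.58 ± 0.731) and Hmox1 (7.46 ± 1.61) could not be ordered beyond their spread. Slc7a11 stood lowest at 0.153 ± 0.0669 FPKM. In amputation Hmox1 had the highest mean, 24.8 ± 8.01 FPKM, and overlapped Nfe2l2 (24.3 ± 2.41). Nqo1 then took rank 9 of 10, at 5.23 ± 2.43 FPKM, overlapping Gclc at 5.35 ± 0.447 FPKM.

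**Figure D4:**
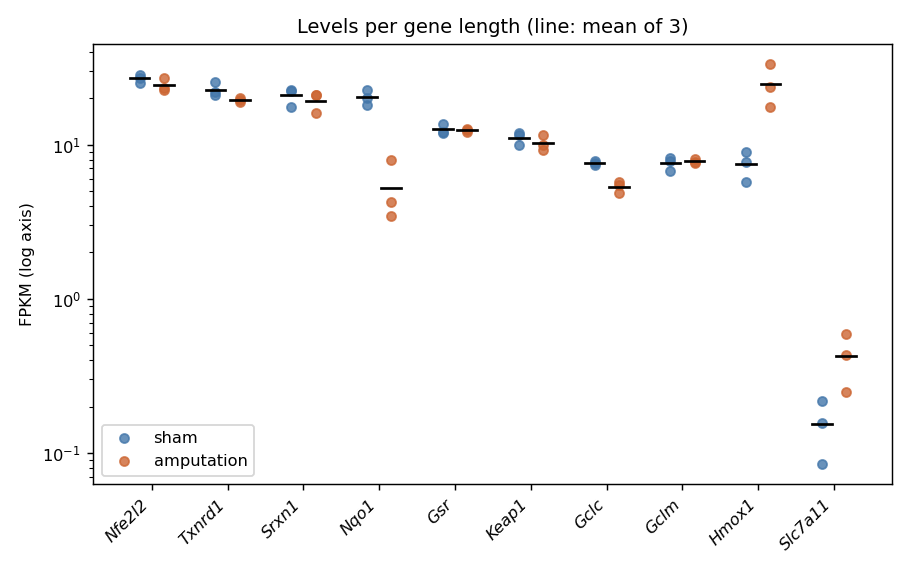
Level of each member per gene length, in FPKM on a log axis, with a point per library and a line at the mean of 3. The members are ordered by their sham mean. Hmox1 moves from the lower levels in sham to the top in amputation and Nqo1 moves the other way, while Slc7a11 lies below 1 FPKM in every library.

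A further list held 47 other NRF2 target genes, of which 46 were in the table and 40 were tested. Of these, 11 were called higher and 8 lower, 27.5% and 20% beside 20.4% and 12.3% of all tested genes, at a median log2 fold change of -0.10; with sham 1, 2, 3 and amputation 1, 2, 3 left out in turn, 6, 4, 6, 6, 7 and 13 were higher and 4, 0, 3, 2, 5 and 17 lower. Targets in the same class moved apart. Among detoxifying enzymes Gsta3, Gsta4, Mgst1, Ephx1, Aox1 and Pir fell, while Akr1b8, Cbr3, Ptgr1 and Ugdh rose. Among export pumps Abcc3 rose, while Abcc1 and Abcg2 fell. The other targets that rose were Prdx1, Txn1, Idh1, Blvrb, Ftl1 and Htatip2.

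Akr1b8, an aldo-keto reductase, stood at 5.03, 5.83 and 5.77 CPM in sham and 17.0, 20.3 and 14.5 CPM in amputation. The groups lay well apart, and it rose by log2 1.64 ± 0.17 (adjusted p = 0.00384, edgeR, n = 3 per group). Abcc3, a pump for organic anions, stood at 4.98, 5.30 and 5.08 CPM in sham and 15.8, 12.9 and 11.6 CPM in amputation and rose by log2 1.39 ± 0.17 (adjusted p = 0.00448, edgeR). Aox1, aldehyde oxidase, stood at 88.5, 82.5 and 77.0 CPM in sham and 29.8, 17.9 and 40.4 CPM in amputation and fell by 1.49 ± 0.29 on the log2 scale (adjusted p = 0.0131, edgeR), a call lost without sham 2 (-1.51).

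**Figure D5:**
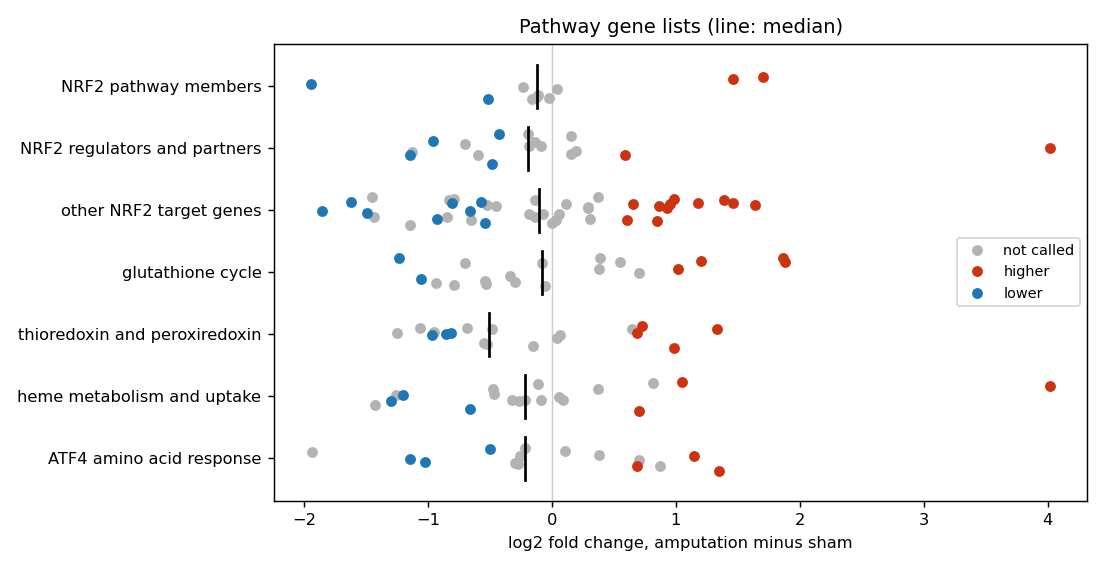
Log2 fold change, amputation minus sham, of each tested gene in the members and the 6 lists of related genes, with red points for genes called higher, blue for called lower, grey for not called and a line at each median. Every list holds genes called in both directions, and the medians lie between -0.50 and -0.08.

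The genes whose pattern over the 6 libraries was most like that of Hmox1 and of Nqo1 were sought among 11027 genes with a mean of at least 5 CPM, by the root mean square difference in centred log2 CPM. Nearest to Hmox1 were Cxcr4 (0.157), Frrs1 (0.159), Fabp5 (0.167), Srpx (0.17) and Vmp1 (0.182). Nearest to Nqo1 were Optn (0.0689), Nnt (0.0951), B3galt1 (0.0985), Pank1 (0.113) and Ech1 (0.124). Nnt, the mitochondrial transhydrogenase that makes NADPH, stood at 376, 408 and 423 CPM in sham and 70.5, 66.1 and 162 CPM in amputation. Slc7a11 had a mean below 5 CPM over the 6 libraries and was not compared. Of the 8 other members compared with each, the closest to Hmox1 was Gclm, at rank 4500, and the closest to Nqo1 was Gclc, at rank 2456.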

How the data were processed

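The kits used were mirVana for RNA and TruSeq Stranded Total RNA, with ribosomal RNA depleted, per the labels' protocols. The submitters' processing notes name Trimmomatic, HISAT2 and the build GRCm38.p6. How reads were counted, and whether by strand, is not given in the sources used here. Keap1 and Gclm have exons that overlap genes on the opposite strand in the annotation, and Gclm also 1 on its own strand, so their reads may be mixed. Values in the authors' count table are raw counts, as whole numbers for each gene and library. The FPKM deposited by the authors were the same counts per gene length and library total, as checked from the values: the implied length was whole, within 0.01 bases, for 100% of genes tested for it.

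Of 21878 genes, 14561 passed filterByExpr and were tested in R 4.3.3 with edgeR 4.0.16 (TMM, quasi-likelihood test, Benjamini-Hochberg adjustment over all tested genes, threshold 0.05). SE is the absolute log2 fold change over the square root of F, and 95% intervals are approximate. Alternatives used DESeq2 1.42.0 and limma 3.58.1. The muscle covariate was the log2 summed CPM of the muscle markers. It is partly confounded with group, so a call lost with it does not assign the change to muscle. Same-numbered libraries deviated together (r = 0.26, 0.13 and 0.41), but sham 1 with amputation 2 (0.24) and sham 2 with amputation 1 (0.11) did so about as much. The labels state no pairing, and these values do not establish that the replicate number pairs libraries. The replicate block was therefore run as an alternative only, and the main fit has no block. No 2 libraries were alike within sampling noise. A simulation of this comparison over 14561 genes held 100 true changes of 4-fold size, of which 99% were called. It held 100 of 2-fold size, of which 19% were called. The real data had far more calls (2968 higher and 1789 lower), and the adjustment depends on that number. The simulated shares are thus not the power for the real data. Named genes were the 10 members, the partners read against them, the 2 genes of smallest p per list with the smallest in the other direction, and the 5 nearest in pattern to Hmox1 and Nqo1; other genes were named after their values were seen. The members and lists were chosen with earlier results of these data known. Totals and counts carry counting error only.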

Additional observations from a re-analysis of the deposited data

How the results depend on the processing

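Over 51 genes named in the text and 17 alternative settings, 769 fold changes kept their direction and side of the threshold, 74 fell short of it, 15 passed it and 9 changed sign. The 9 belong to 5 genes that were called neither in all libraries nor under those settings: Keap1 (0.084 with the muscle covariate; -0.249 to 0.0085 on leaving out a library), Gclm (-0.0558 to 0.0781 on leaving out a library), Gsr (0.027 with upper quartile scaling, 0.0221 with the covariate; -0.0894 to 0.0518 on leaving out a library), Hmox2 (-0.0596 to 0.189 on leaving out a library) and Bach1 (-0.000342 with the covariate). Hmox1 and Nqo1 were called in each. Of the members, 2 were higher and 2 lower; with limma on log2(FPKM + 1) or log2(FPKM + 0.1) 1 was higher, with the muscle covariate 1 was higher and 1 lower, and leaving out a library gave 1 to 2 higher and 1 to 2 lower. The 2 lists of other NRF2 regulators and targets together held 13 higher and 12 lower, against 7 and 6 with the muscle covariate, and 4 to 16 and 1 to 25 on leaving out a library, the most without amputation 3. Over all genes, 2968 were higher and 1789 lower, against 1604 and 777 with the muscle covariate, and 1091 to 4212 and 436 to 4392 on leaving out a library; DESeq2 called 2776 lower. The cause was not tested.

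The replicate block, which assumes that libraries pair by number, left 2 members higher and 2 lower (Hmox1 1.70, Nqo1 -2.04) and called 3161 genes higher and 2522 lower. Of these 51 genes, Nfe2l1, Gss and Txnrd2 gained a call under the block and Slc11a1 lost it. Slc7a11 and Nfe2l3 rest on 22 to 161 and 0 to 37 counts per library.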

Other observations

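The genes here were chosen after their values were seen. Ftl1, the light chain of the iron store ferritin, stood at 205, 254 and 244 CPM in sham and 537, 601 and 453 CPM in amputation and rose by log2 1.18 ± 0.20 (adjusted p = 0.00952, edgeR's quasi-likelihood test, n = 3 per group). Fth1, the heavy chain that oxidizes iron, stood at 711, 754 and 773 CPM in sham and 414, 392 and 615 CPM in amputation, without overlap, and was not called (log2 -0.65 ± 0.25; adjusted p = 0.0881, edgeR). The light chain has close copies in the mouse genome, so its counts may be uncertain. No call of Ftl1 was lost in the 17 settings, and Fth1 was called in DESeq2 (-0.67) and without amputation 3 (-0.89). Both biliverdin reductases, which act after heme oxygenase, rose: Blvra by log2 0.70 ± 0.14, from 8.19 ± 0.193 in sham to 13.3 ± 1.34 CPM in amputation, and Blvrb by log2 0.60 ± 0.16, from 7.48 ± 1.03 in sham to 11.4 ± 0.702 CPM in amputation (adjusted p = 0.0132 and 0.0313, edgeR). Neither was called with the muscle covariate (0.61 and 0.67) or without sham 1, 2 or 3, and Blvrb not without amputation 1 or 2.

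Prdx1, a peroxiredoxin, and Txn1, thioredoxin itself, rose by log2 0.85 ± 0.17 and 0.65 ± 0.17 (adjusted p = 0.015 and 0.0295, edgeR), while Txnrd1 and Srxn1, the enzymes that recycle them, were not called. Prdx1 was not called without sham 1 or 2, and Txn1 with the muscle covariate (0.43) or without any library except amputation 3. Gpx3, the secreted glutathione peroxidase, stood at 234, 234 and 198 CPM in sham and 668, 1378 and 375 CPM in amputation, with a wide spread in amputation, and was called (log2 1.86 ± 0.48, adjusted p = 0.0295, edgeR) but not with the muscle covariate (0.58) or without sham 1, 2 or 3 or amputation 1. Without amputation 2 it stood at log2 1.24.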
